A study of Saccharomyces cerevisiae with 37 samples.

Results

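The aryl-alcohol dehydrogenase (AAD) genes of budding yeast (Saccharomyces cerevisiae) were followed through a transcription shutoff in stressed and unstressed cells. The family was chosen by gene symbol from 7 names (AAD3, AAD4, AAD6, AAD10, AAD14, AAD15 and AAD16). It was selected on levels at time 0 that earlier results of these data had shown, so levels at time 0 are described here and not tested. Of the 7 genes, 5 were measured, by 8 of the 5900 probe sets of the array, out of 5449 genes in all. AAD15 and AAD16 had no probe set under their names and were not analysed here. Each of the 5 measured genes had a probe set of its own, and 3 further probe sets (2 named for AAD3 and 1 for AAD4) carry the suffix of probe sets shared between gene copies.

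AAD proteins belong to the aldo-keto reductases, enzymes that use NADPH to convert aldehydes and ketones to alcohols, and were named for their likeness to an aryl-alcohol dehydrogenase of a wood-rotting fungus. Their genes lie near chromosome ends, and no essential role is known for them in yeast. AAD4 and AAD6 are known as targets of Yap1, the transcription factor that switches on antioxidant and detoxification genes under oxidative stress. After transcription has stopped, the level of a transcript depends on how fast existing copies are degraded.

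All cultures were strain Y262, whose RNA polymerase II is temperature-sensitive, grown in rich medium at 26 °C and brought to 37 °C at time 0 to stop transcription. The oxidative stress culture (10 arrays) had received 0.3 mM hydrogen peroxide 25 min earlier, and the DNA damage culture (10 arrays) 0.1% methyl methanesulfonate, which alkylates DNA, 40 min earlier. The labels give both times without tying each to its agent, and they were read in the order of the agents. Reference 1 (10 arrays) and reference 2 (7 arrays, none after 30 min used here) had no added stress. Each course began with 2 technical arrays at time 0, and since only the references had 2 cultures, they alone give a spread between cultures. The heat shift, for which hotter medium was added, was shared by all cultures.

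Values are the deposited log2 levels. Array medians lay between 10.51 and 12.89 and were lower at the end of each course than at time 0. How much of this fall was loss of transcript and how much was scale was not tested. The 2 arrays at time 0 differed in median by 0.45 in reference 1 and 0.37 under oxidative stress. At time 0 the median gene stood 0.36 above the mean of the references under oxidative stress and 0.017 below it under DNA damage (log2). Differences at time 0 are therefore given after each array's median was taken off. The oxidative stress culture stood apart in a ribosomal RNA control probe set, which averaged −1.68 relative to the array median, against 0.024 under DNA damage, 0.60 in reference 1 and 0.33 in reference 2. Its part in the results below was not tested. RNA was copied from poly(T) primers, so a change in poly(A) tail and a change in transcript number cannot be told apart.

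AAD4 and AAD6 were the members with high levels in the stressed cultures before the shutoff. AAD6 (YFL056C, chromosome VI) read 14.92 and 15.20 on the 2 arrays at time 0 under oxidative stress and 13.41 and 13.50 under DNA damage, against 10.55 and 11.04 in reference 1 and 10.81 and 10.59 in reference 2 (log2 levels). The oxidative stress arrays were the highest, the DNA damage arrays came next, and neither overlapped the references. Relative to the array median, AAD6 stood 3.96 above the mean of the references under oxidative stress and 2.73 above it under DNA damage (log2). The references differed from each other by −0.019 (reference 1 minus reference 2). Their AAD6 means at time 0, 10.79 and 10.70, lay below 11.04, the 30th percentile of probe sets used as the filter on low values, so the differences may be understated and no fold is given. The gene table classes AAD6 as a pseudogene and lists YFL057C, the locus name of AAD16, as its synonym, so the probe set may stand for either name.

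AAD4 (YDL243C, chromosome IV) also stood highest under oxidative stress, next under DNA damage and lowest in the references. Its own probe set read 14.79 and 15.01 under oxidative stress and 13.16 and 13.18 under DNA damage, against 10.00 and 10.51 in reference 1 and 10.46 and 10.31 in reference 2. The difference from the references was 4.22 under oxidative stress and 2.87 under DNA damage, and the references differed by −0.25. Their AAD4 means, 10.25 and 10.39, were below the filter too. Oxidative stress lay above DNA damage by 1.36 for AAD4 and by 1.23 for AAD6, with pretreatments of unequal length. Its shared probe set read 15.78 and 16.18 under oxidative stress and 15.31 and 15.33 under DNA damage, against 11.97 and 12.60 in reference 1 and 11.91 and 11.83 in reference 2. There the difference from the references was 3.55 and 3.26 for the 2 stresses in the same order. The gap between the stresses was 0.29 on that probe set, whose signal from AAD4 cannot be told apart from that of other copies.

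**Figure D1:**
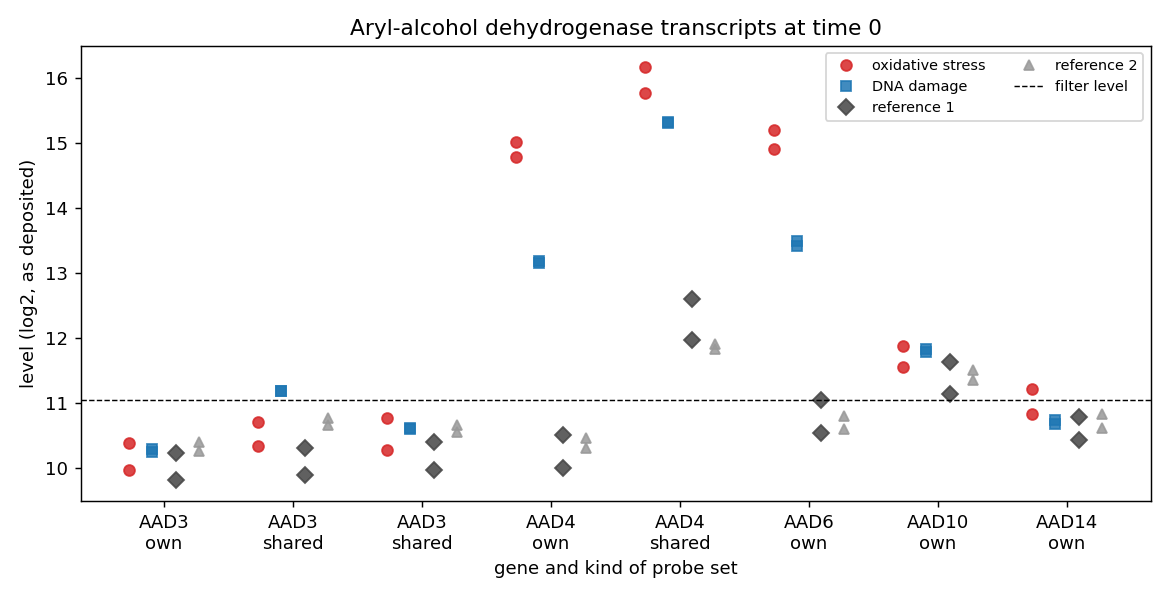
Level at time 0 (log2, as deposited) of the 8 AAD probe sets, with 1 point per technical array. Both probe sets of AAD4 and that of AAD6 are high under oxidative stress (red) and DNA damage (blue), while the other 5 lie near the references (grey), and the dashed line is the filter level of 11.04.

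The other 3 members did not share these levels. AAD10 (YJR155W, chromosome X) read 11.55 and 11.88 under oxidative stress and 11.84 and 11.79 under DNA damage, against 11.14 and 11.63 in reference 1 and 11.50 and 11.36 in reference 2. Relative to the median it differed from the references by −0.050 under oxidative stress and 0.42 under DNA damage, with 0.15 between the references. AAD14 (YNL331C, chromosome XIV) differed by −0.0015 and 0.062 for the same stresses. AAD3 (YCR107W, chromosome III) differed by −0.35 and 0.11 on its own probe set, with 0.42 between the references. On values as deposited the oxidative stress differences of these 3 genes were 0.31 for AAD10, 0.35 for AAD14 and 0.0034 for AAD3, so the sign of none of them is settled.

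The probe sets shared by AAD3 and other copies read differently under DNA damage. One of them, with the suffix _s_at, read 10.33 and 10.70 under oxidative stress and 11.19 on both DNA damage arrays, against 9.88 and 10.31 in reference 1 and 10.77 and 10.66 in reference 2. Its difference from the references under DNA damage was 0.80, beside 0.73 between the references. The one with the suffix _x_at differed by 0.22. Which copies contribute to these signals was not tested.

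By the rule of more than 1 log2 above each reference, 2 of the 5 measured members (AAD4 and AAD6) were high under each stress. Over all 5449 genes the share was 2.53% under oxidative stress and 1.23% under DNA damage, and the count in the family is a description because the family was selected on these levels. No member lay more than 1 log2 below each reference, beside 0.789% of genes under oxidative stress and 0.697% under DNA damage. Over the 5 members the median difference was −0.0015 under oxidative stress and 0.42 under DNA damage, beside −0.11 and −0.18 across the array.

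Once transcription was stopped, the AAD4 and AAD6 levels took different courses in the stressed cultures. Under oxidative stress, AAD6 read 14.49, 13.44, 13.08, 12.90 and 12.29 at 5, 10, 15, 20 and 30 min, then 10.65, 11.22 and 10.08 at 40, 50 and 60 min. Under DNA damage it read 13.65, 13.62, 13.21, 13.37 and 13.41, then 13.61, 13.50 and 13.65 at the same times. Reference 1 read 10.99, 10.51, 10.59, 10.33 and 10.13, then 9.98, 9.95 and 9.61, and reference 2 read 10.05, 9.58, 9.49, 9.61 and 9.80 to 30 min. The oxidative stress values came down towards those of reference 1, and the DNA damage values stayed apart from the references at every time. At 60 min, 3.18% of the time 0 level was left under oxidative stress and 114% under DNA damage, against 44.0% in reference 1. The median gene had 21.9%, 34.3% and 30.3% left in the same 3 cultures, so AAD6 was below it under oxidative stress and above it in the other 2. In reference 1, AAD6 read below the filter from 5 min on.

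AAD4 also declined under oxidative stress, and under DNA damage it was lower at 60 min than at time 0. Its own probe set read 14.50, 13.49, 12.80, 12.27 and 11.75 at 5 to 30 min under oxidative stress, then 10.56, 11.00 and 10.03 at 40 to 60 min. The DNA damage values were 13.30, 13.09, 12.90, 12.90 and 13.01, then 12.88, 12.95 and 12.60. Reference 1 read 10.24, 9.62, 9.60, 9.40 and 9.17, then 9.07, 8.94 and 8.73, and reference 2 read 9.48, 8.81, 8.65, 8.94 and 9.29. No stressed array overlapped a reference array of the same time. At 60 min, 3.41% was left under oxidative stress and 67.4% under DNA damage, against 34.7% in reference 1. At 30 min, where both references were read, 11.3% was left under oxidative stress and 89.4% under DNA damage, against 47.1% and 46.6% in the references. AAD4 read below the filter in the references at every time, and the median gene had 43.7% and 48.4% left there at 30 min. The reference values are therefore no measure of AAD4 decay without stress.

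**Figure D2:**
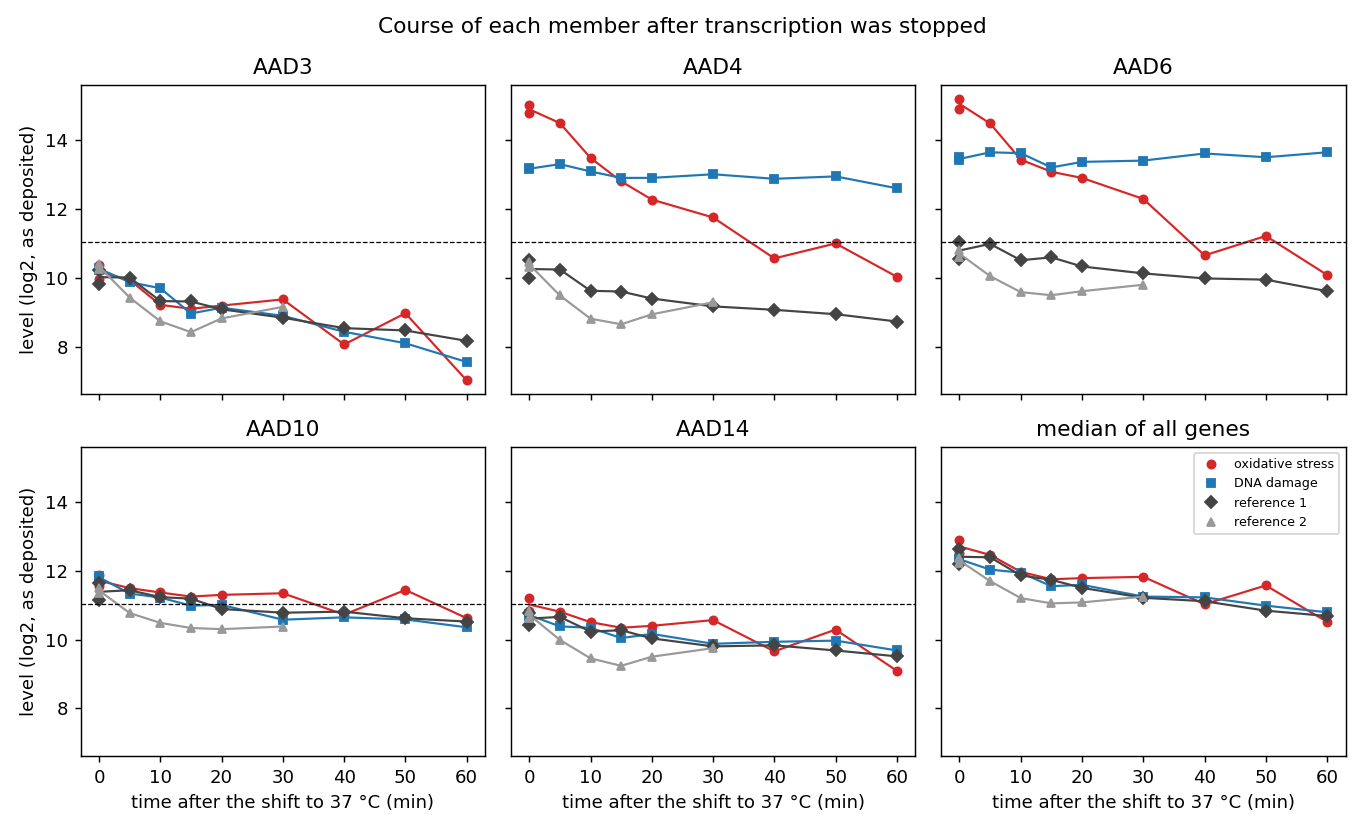
Level (log2, as deposited) of the 5 measured members (own probe sets) and of the median of all genes against time after the shift (min), with 1 point per array and lines through culture means. AAD4 and AAD6 decline under oxidative stress (red) and stay within 12.60 to 13.65 under DNA damage (blue), and the dashed line is the filter level of 11.04.

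The order of the 2 stressed cultures turned during the course. Relative to the array median, AAD6 stood at 2.35 under oxidative stress and 1.12 under DNA damage at time 0. The values were 1.47 and 1.68 at 10 min, 0.47 and 2.16 at 30 min, and −0.43 and 2.86 at 60 min, oxidative stress before DNA damage each time. For AAD4 they were 2.19 and 0.84 at time 0, 1.05 and 1.35 at 15 min, −0.071 and 1.76 at 30 min, and −0.48 and 1.81 at 60 min. The crossing lay between 5 and 10 min for AAD6 and between 10 and 15 min for AAD4, and it lay in the same intervals on values as deposited.

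**Figure D3:**
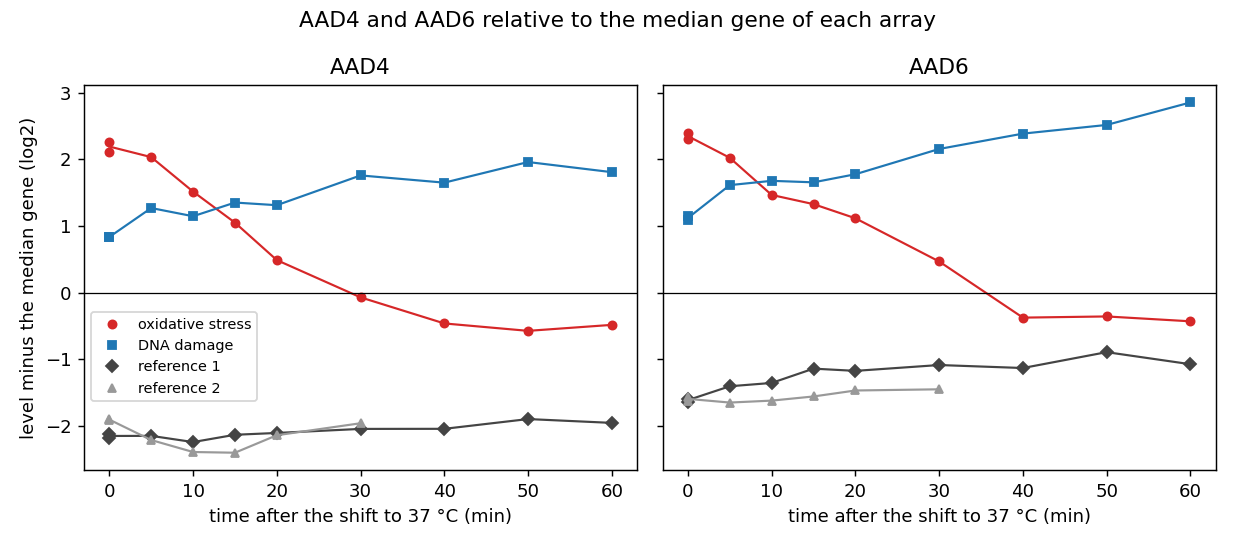
Level of AAD4 (own probe set) and AAD6 minus the median gene of the array (log2) against time after the shift (min), with 1 point per array. Oxidative stress (red) starts above DNA damage (blue) and ends below it, at −0.48 against 1.81 for AAD4 and −0.43 against 2.86 for AAD6 at 60 min.

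The decline was measured by the slope over 5 to 30 min, in log2 per 10 min on values as deposited, which leaves out the arrays the family was selected on. The AAD4 slope was −1.07 ± 0.18 under oxidative stress and −0.11 ± 0.077 under DNA damage (SE of the line, 5 arrays each), against −0.38 in reference 1 and −0.0019 in reference 2. For AAD6 it was −0.79 ± 0.16 under oxidative stress and −0.11 ± 0.093 under DNA damage, against −0.31 and −0.052 in the references. AAD4 and AAD6 thus had their steepest lines in the oxidative stress culture. Written as half-lives, the oxidative stress slopes were 9.36 min for AAD4 and 12.6 min for AAD6. No half-life is given under DNA damage, where the slopes were about the size of their SE. The median gene had a slope of −0.21 under oxidative stress and −0.29 under DNA damage, against −0.41 and −0.14 in the references. Bacterial spike-in control probe sets (42) had median slopes of −0.085 under oxidative stress and −0.11 under DNA damage, against −0.16 and −0.045, and these were not taken off. The shared probe set of AAD4 had slopes of −0.65 under oxidative stress and −0.19 under DNA damage.

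Slopes were tested across 3895 genes with limma, with 1 value per culture and gene and Benjamini-Hochberg adjustment at a threshold of 0.05. AAD4, AAD6 and AAD10 were among the genes whose mean over 0 to 30 min passed the filter of 11.04, and AAD3 and AAD14 were not. AAD4 and AAD6 averaged 9.03 to 10.51 over 5 to 30 min in the references and passed through the stressed cultures, so their reference slopes come from low signal. None of the 3 was called in any comparison. For oxidative stress against the references the AAD4 difference was −0.88 ± 0.31 (SE, adjusted p = 0.9998, unadjusted p = 0.00442), and that of AAD6 was −0.61 ± 0.31 (adjusted p = 0.9998, unadjusted p = 0.0467). The SE of each stress comparison was the same for every gene, so it is not the spread of AAD4 or AAD6. With array medians taken off, limma gave −0.95 ± 0.097 for AAD4 (adjusted p = 0.254) and −0.69 ± 0.093 for AAD6 (adjusted p = 0.371), neither called. On values as deposited, 0.0257% of all genes tested were called more negative under oxidative stress (SRX1 alone) and 0% more positive. There, 18 genes had an unadjusted p under 0.05.

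For oxidative stress against DNA damage the slope difference was −0.96 ± 0.36 for AAD4 (unadjusted p = 0.00707) and −0.69 ± 0.36 for AAD6 (unadjusted p = 0.0534), with an adjusted p of 0.99996 for both in limma. No gene was called (0% in either direction), and 46 had an unadjusted p under 0.05. In the order of this difference over 3895 genes, AAD4 was 4th and AAD6 12th from the most negative end. The order is a description, because the family was selected on levels at time 0 and both genes passed the filter through the stressed cultures. DNA damage against the references gave 0.081 for AAD4 and 0.074 for AAD6 (adjusted p = 0.9999 for both in limma). The sign turned with the reference: without reference 1 the values were −0.11 and −0.054, and without reference 2 they were 0.27 and 0.20. In that comparison 0% of genes were called in either direction, with 64 at an unadjusted p under 0.05. The slopes of the references relative to their median gene were 0.085 for AAD4, 0.095 for AAD6 and 0.071 for AAD10, none called, with 0% of genes called in either direction and 1215 at an unadjusted p under 0.05.

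These calls depended on the window and on the unit taken as the replicate. Over 5 to 20 min the AAD4 difference passed in limma, at −1.03 against the references (adjusted p = 0.00163) and −1.19 against DNA damage (adjusted p = 0.0012), while AAD6 did not (adjusted p = 0.170 and 0.0946). The AAD4 call against the references sets a gene that passed the filter through the stressed cultures against slopes at low reference signal. Neither stress had a replicate culture, so the error of the limma call against DNA damage came from the spread between the references. Its p is therefore no measure of variation between stressed cultures. Over 0 to 30 min the window includes the arrays the family was selected on, so its tests of members are not given. With the scatter of arrays about each line as the error, which leaves out the spread between cultures, AAD4 passed against the references (adjusted p = 0.0283) and against DNA damage (adjusted p = 0.0132). With that error AAD6 passed against DNA damage (adjusted p = 0.0288) and not against the references (adjusted p = 0.0775). The AAD4 call against the references under this error has the same limit of low reference signal. Over the alternatives that leave out time 0, the adjusted p of AAD4 lay between 0.00163 and 0.99996 against the references and between 0.0012 and 0.99996 against DNA damage. That of AAD6 lay between 0.0775 and 0.99996 and between 0.0288 and 0.99996.

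**Figure D4:**
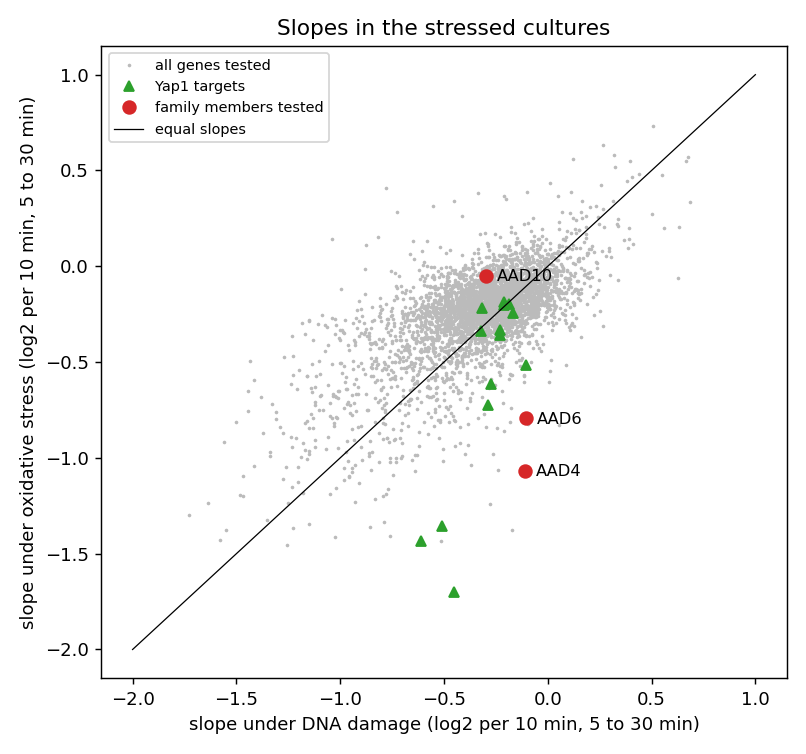
Slope over 5 to 30 min (log2 per 10 min) under oxidative stress, on the vertical axis, against the slope under DNA damage for the 3895 genes tested (grey), the 14 Yap1 targets (green triangles) and the 3 members tested (red). AAD4 and AAD6 lie far below the line of equal slopes, at −1.07 and −0.79 under oxidative stress, and AAD10 lies above it.

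AAD10 and AAD14 had flatter lines over 5 to 30 min than the median gene under oxidative stress (−0.21) and in reference 1 (−0.41). The AAD10 slope over 5 to 30 min was −0.050 ± 0.047 under oxidative stress and −0.30 ± 0.039 under DNA damage (SE of the line, 5 arrays each), against −0.27 and −0.14 in the references. Its tested differences were 0.15 for oxidative stress and −0.091 for DNA damage, neither called. AAD14 had −0.075 ± 0.10 under oxidative stress and −0.20 ± 0.052 under DNA damage, against −0.31 and −0.036. AAD3 had −0.15 ± 0.18 and −0.40 ± 0.14 on its own probe set, against −0.41 and −0.029. With that SE, the AAD3 line under oxidative stress cannot be told apart from that of the median gene. Its own probe set had 57.2% of the time 0 level left at 30 min under oxidative stress and 38.6% under DNA damage, against 44.2% and 44.3% in the references, where AAD4 had 47.1% and 46.6%. At 60 min, 46.9% of the time 0 level of AAD10 was left under oxidative stress and 36.5% under DNA damage, against 54.9% in reference 1. For AAD14 it was 26.2% and 49.0%, against 46.7%. For AAD3 it was 11.2% and 15.2%, against 27.7%, so under each stress AAD3 ended below the median gene, on signals under the filter.

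From 30 to 60 min there was no second reference, so slopes are descriptions. AAD6 had −0.61 log2 per 10 min under oxidative stress and 0.062 under DNA damage, against −0.16 in reference 1, and AAD4 had −0.47 and −0.12, against −0.14. AAD3 had −0.62 and −0.44, against −0.21, AAD14 had −0.38 and −0.055, against −0.10, and AAD10 had −0.15 and −0.072, against −0.097. A steep late line under oxidative stress was thus also read for AAD3, on signals below the filter (9.37 at 30 min and 7.02 at 60 min). AAD4 and AAD6 also read below the filter at 40 and 60 min in that culture. The median gene had −0.32 and −0.14, against −0.18. Relative to it AAD6 had −0.27 under oxidative stress and 0.22 under DNA damage, AAD3 had −0.28 and −0.27, and AAD4 had −0.14 and 0.046, so the sign for AAD4 under DNA damage turned with the scale. All 5 members read higher at 50 min than at 40 min under oxidative stress on values as deposited, as did the median gene.

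**Figure D5:**
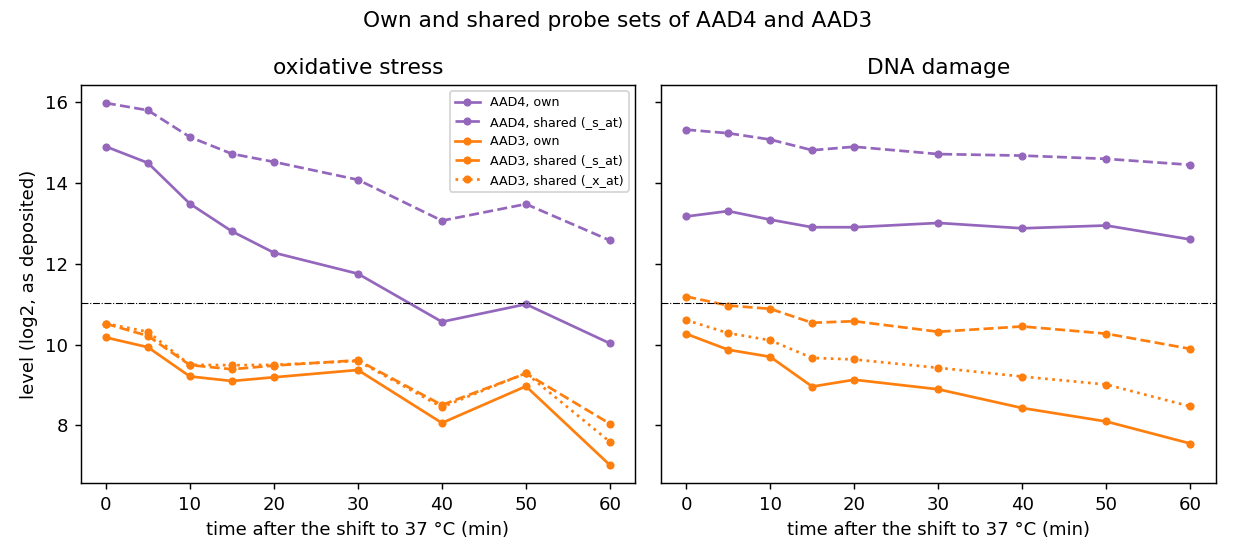
Level (log2, as deposited) of the own (solid) and shared (dashed and dotted) probe sets of AAD4 (purple) and AAD3 (orange) against time after the shift (min), under oxidative stress on the left and DNA damage on the right. The AAD4 sets decline under oxidative stress to 10.03 and 12.58 at 60 min, and the AAD3 sets remain under the dash-dotted filter level of 11.04 but for the _s_at set at time 0 under DNA damage.

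Across the 37 arrays, with array medians taken off, AAD4 and AAD6 correlated at r = 0.986 and AAD10 and AAD14 at r = 0.734. The AAD3 own probe set correlated at −0.30 with AAD6, and its _s_at set at 0.53. These correlations are descriptions, since arrays of a course share a culture and the 37 arrays include those the family was selected on. Outside the family, the genes closest to AAD4 were SRX1, which encodes sulfiredoxin (r = 0.974), GTT2, a glutathione transferase (r = 0.973), and AFT2, an iron-responsive transcription factor (r = 0.972). Those closest to AAD6 were ASR1 (r = 0.970), GTT2 (r = 0.964) and ISU2, a scaffold for iron-sulfur clusters (r = 0.961). For the mean of the members they were GTT2, SRX1, ASR1, AIF1 and AFT2, with r of 0.972, 0.959, 0.956, 0.955 and 0.953. That list does not stand for each member: AAD3, AAD10 and AAD14 (own probe sets) correlated with AAD4 at −0.28, 0.030 and 0.23. For AAD10 they were BCH2, EXO1 and PEX8 (r = 0.890, 0.865 and 0.858), for AAD14 STN1, IRC3 and ROG3 (r = 0.914, 0.879 and 0.879), and for AAD3 RDS1, GTO3 and TEP1 (r = 0.966, 0.940 and 0.936).

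A list of 14 Yap1 targets was chosen with earlier results of these data known, so its counts are descriptions. Among them, 8 of 14 were high at time 0 under oxidative stress and 8 of 14 under DNA damage. The share of all genes was 2.53% and 1.23%. The medians of the list were 2.00 and 1.39. The largest differences were those of SRX1 (5.46 under oxidative stress and 4.77 under DNA damage), OYE3, an NADPH oxidoreductase (4.79 and 3.54), and GTT2 (3.88 and 2.96). The slope over 5 to 30 min was −1.70 for SRX1, −1.44 for OYE3 and −0.52 for GTT2 under oxidative stress, and −0.45, −0.61 and −0.10 under DNA damage. Over all 14 the median slope was −0.35 under oxidative stress and −0.25 under DNA damage, and the median difference from the references was −0.042 and 0.022. SRX1 was the 1 gene called in limma against the references (difference −1.35, adjusted p = 0.0473). The 50 genes outside the family that were high at time 0 under both stresses and entered the slope test had a median slope of −0.55 under oxidative stress and −0.25 under DNA damage, beside −0.21 and −0.29 over all genes tested. AAD4 and AAD6 were therefore lower than that median under oxidative stress and higher under DNA damage.

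Relatives of the family by enzyme class were read as well, in 2 lists also chosen with earlier results known. Beside their counts, the share of all genes high at time 0 was 2.53% under oxidative stress and 1.23% under DNA damage. Of 8 other aldo-keto reductases, 1 was high under oxidative stress (GCY1, a glycerol dehydrogenase, at 1.66) and 0 under DNA damage. The next were YDL124W at 0.96 and YJR096W at 0.69 under oxidative stress, and the list's median was 0.56 and 0.19. Of 11 alcohol and butanediol dehydrogenases, 1 was high under each stress (GRE2, a methylglyoxal reductase, at 2.96 under oxidative stress and 2.36 under DNA damage), and the list's median was 0.027 and −0.22. SFA1, a formaldehyde dehydrogenase, stood 1.16 and 0.51 above the mean of the references, without exceeding each of them by more than 1, while ADH5 stood at −0.84 and 1.98 with references that differed by −2.66. Of these genes, 8 of the first list and 9 of the second entered the slope test, and none was called.

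None of the measured nearest genes on the chromosome had the levels of AAD4 and AAD6. Of 22 neighbours (the nearest 2 on either side of each member in the gene table), 15 were measured, including 3 beside the unmeasured AAD15. Beside AAD4 and AAD6, HXT15, THI13 and SNZ3 were read on shared probe sets. Of the 15, 0 were more than 1 log2 above or below each reference in either stress. Over all genes the share above was 2.53% under oxidative stress and 1.23% under DNA damage, and the share below 0.789% and 0.697%. A count of 0 of 15 is near those shares, so it is a description. Their differences ran from −0.46 to 0.40 under oxidative stress and from −0.45 to 0.23 under DNA damage. RDS1, next to AAD3 and like it below the filter, was also the gene closest to it across arrays. Thiamine synthesis genes of the THI5 family lie next to AAD4 (THI13), AAD6 (THI5), AAD10 (THI11) and AAD14 (THI12). Only THI13 among them was measured, on a shared probe set, at −0.22 under oxidative stress and −0.13 under DNA damage. SNZ3, a vitamin B6 synthesis gene beside AAD6, had a slope of 0.84 log2 per 10 min under DNA damage and −0.29 under oxidative stress, against −0.47 and −0.17 in the references, on a shared probe set below the filter that was not tested.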

How the data were processed

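The deposited values are log2 levels of probe sets that the authors computed with RMA (per the submitters' processing notes). The RMA version is not given in the sources used here, nor is any joint normalization of the arrays. Members, lists and tests were chosen with earlier results of these data known. The platform's annotation named 5498 probe sets, none with several genes, and left 402 without a name. Each gene was read from an unshared probe set where it had one, a rule written after the values were seen, as was its alternative (the brightest set). No genome or promoter sequences were used. Levels at time 0 were array means minus the array median. Slopes were least-squares fits per culture over 5 to 30 min, compared with limma 3.58.1 in R 4.3.3 for genes above the 30th percentile of probe sets (11.04). With 1 residual degree of freedom from the references and infinite prior degrees of freedom, stressed cultures were assumed to vary like the references. The fit was tested on simulated data. Named genes were all members, their nearest neighbours, the most correlated genes (3 per member, 5 for the mean) and the 3 largest level differences of each list. Of the neighbours, which are counted and given as ranges, those printed singly were picked after their values were seen. The number of arrays limits the precision.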

Additional observations from a re-analysis of the deposited data

How the results depend on the processing

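The count of members high at time 0 stayed at 2 in each stress under every scale, time 0 array, left-out reference and the stricter limit of 2 log2. The family was selected on these levels, so the unchanged count is a description and no support. Slope calls over all genes moved most. Against DNA damage, oxidative stress gave 86 calls over 0 to 30 min, 74 over 5 to 20 min and 122 with array scatter as the error, beside 0 as reported. Against the references, DNA damage gave 75, 139 and 147 in the same order, beside 0. Oxidative stress gave 33, 33 and 15, beside 1, and 0 on centred arrays, with no filter and after quantile normalization. The references against their median gene gave 1224 calls over 0 to 30 min, 1389 over 5 to 20 min, 481 with no filter and 23 after quantile normalization, beside 0. The median gene had a slope over 5 to 30 min of −0.41 in reference 1 and −0.14 in reference 2. The part of this gap in the counts was not tested, nor was any other cause. The median level difference of the members was 0.59 for DNA damage after quantile normalization, and on values as deposited it was 0.35 for oxidative stress and 0.31 for oxidative stress minus DNA damage. On the AAD4 shared probe set, an alternative chosen after seeing the data, the slope difference for oxidative stress was −0.56 against the references and −0.46 against DNA damage, and for DNA damage against the references it was −0.10, beside 0.081 on the own probe set. No paired analysis was possible because each stress had 1 culture. Signals of AAD3 and AAD14, and of AAD4 and AAD6 in the references, lay below the filter, so slopes there are uncertain.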
